A study of Mus musculus with 12 samples.

Results

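The 9 genes described here encode ATP-binding cassette (ABC) exporters of the hepatocyte: Abcc2, Abcc3, Abcc4, Abcb1a, Abcb1b, Abcb4, Abcg2, Abcg5 and Abcg8. They were taken by name, as efflux pumps of the canalicular and basolateral hepatocyte membranes. The rule uses no measured value, but the set was chosen with earlier results of these data known. All 9 were found by symbol among the 24187 genes with counts, and all 9 were among the 22581 genes with enough counts to be tested.

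ABC exporters use ATP to carry substrates out of the cell against their gradient. In the hepatocyte they stand on opposite faces: the canalicular pumps send conjugates, phospholipid, sterols and drugs into bile, and the basolateral pumps return conjugates and bile acids to the blood. Acetaminophen (APAP, paracetamol) is cleared mainly as glucuronide, sulfate and glutathione-derived conjugates, which leave the hepatocyte through several of these pumps.

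Bulk RNA sequencing was done on liver pieces of 12 mice. The control mice (n = 3) are given as untreated in the series' design text. The vehicle mice (n = 5) received 350 mg/kg APAP and then PBS vehicle, and the hAAM mice (n = 4) received the same APAP dose and then human alternatively activated macrophages, which had been grown from blood monocytes, polarised with IL-4 and IL-13 and frozen before use. Cells or vehicle were injected intravenously 16 h after APAP into C57BL/6J mice (C57BL6/JOlaHsd in a further passage of the methods) aged 10 to 12 weeks that had been fasted before the overdose. The study's methods also name a saline injection after fasting in place of APAP, and whether the control mice had either is not given in the sources used here. The effects of APAP and of any fasting or injection that the control mice did not share cannot be told apart in the comparisons with control. The dose is the one that GEO's labels give, whereas the study shows these livers beside its severe model, for which it names a higher APAP dose, so the dose is uncertain. Its text also gives differing times of liver collection. The sex of each mouse is not in the labels. Livers are named below by group and by the replicate number of the labels, which count 3, 5 and 4 mice.

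Each liver gave between 47391650 and 74056505 counts, and the scaling factors of the trimmed mean of M-values (TMM) ranged from 0.832 to 0.859 in control, 1.02 to 1.13 in vehicle and 0.933 to 1.14 in hAAM livers. Vehicle replicate 3 and hAAM replicate 4 were nearly the same library by their counts. Their differences were 1.20 times counting noise over 13654 well-counted genes, against at least 2.55 times in every other pair of injured livers. The fold changes and calls of the members, the counts of calls in the lists and the correlations among injured livers were therefore also computed without both, the last 2 after seeing the data. The label of the tissue was checked against 10 hepatocyte markers, of which 9 were measured. Their summed level lay between 59509 and 96811 CPM (counts scaled to the TMM-adjusted library total) across the livers.

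The following 3 stretches, which cover the starts of 4 members, are shown because Abcc4 was one of the members whose level differed from control, Abcb1b was the member that moved most closely with it among the injured livers, and Abcg5 and Abcg8, which moved together, are transcribed away from a shared gap. They are RefSeq sequences of the GRCm38.p6 assembly, which matched 8 of the 9 members, with Abcc3 named only. Each is printed 5′ to 3′ on the named strand, with letters in capitals where they match a searched motif on either strand. Abcc4, 200 bases before the start, minus strand, chr14:118706220-118706419. Abcb1b, 200 bases before the start, plus strand, chr5:8797947-8798146. Abcg5 and Abcg8, the 109 bases between their starts, plus strand, chr17:84683012-84683120, with Abcg5 read to the left and Abcg8 to the right. RefSeq also gives Abcg8 a start at 84676302, inside Abcg5, and Abcc4 a further start at 118676931, 29288 bases from the one shown. It places the start of Abcb1a 92986 bases from that of the GENCODE annotation used for exon lengths, so Abcb1a is not shown.
Abcc4: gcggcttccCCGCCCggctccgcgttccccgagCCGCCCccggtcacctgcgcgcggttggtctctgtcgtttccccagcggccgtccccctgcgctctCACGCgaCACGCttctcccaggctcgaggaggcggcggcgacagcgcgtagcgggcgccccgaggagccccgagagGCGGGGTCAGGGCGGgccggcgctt
Abcb1b: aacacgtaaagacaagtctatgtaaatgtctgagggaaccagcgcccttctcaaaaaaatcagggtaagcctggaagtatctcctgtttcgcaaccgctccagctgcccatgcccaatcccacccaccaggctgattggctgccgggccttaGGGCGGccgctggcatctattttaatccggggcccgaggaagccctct
Abcg5 and Abcg8: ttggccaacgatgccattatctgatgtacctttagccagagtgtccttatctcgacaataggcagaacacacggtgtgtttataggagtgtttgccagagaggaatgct

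The motifs searched on both strands, in the 250 bases before each start, were the antioxidant response element core TGACNNNGC (10.2% of 32851 RefSeq promoters held it), the xenobiotic response element core GCGTG (28.2%), the AP-1 site TGANTCA (6.75%), the nuclear receptor half-site AGGTCA (14.0%), the D-box TTATGNAA (3.07%) and the GC box GGGCGG (32.7%). The Abcc4 stretch is 77.5% G and C. It holds 1 antioxidant response element core, read on the opposite strand from position -25 relative to the start, which abuts a GC box, and 2 xenobiotic response element cores and 3 GC boxes in all. The Abcb1b stretch, 55.5% G and C, holds 1 GC box, and the gap between Abcg5 and Abcg8, 45.9% G and C, holds none of the motifs. The antioxidant response element core also stood before the start of Abcc2, from position -98, and before the further start of Abcc4, from position -23. The window before the RefSeq start of Abcb1a held none of the motifs. A match is a description of letters and was not tested as a site.

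To place the genes relative to each other, levels were expressed per kilobase of exon (RPKM, from TMM-scaled CPM). In control livers the organic anion pump Abcc2 was the highest at 64.9 ± 10.3 RPKM (SD, n = 3). Abcc3 followed at 30.9 ± 15.7, Abcb4 at 20.2 ± 2.97, Abcg5 at 12.2 ± 3.09, Abcg8 at 11.6 ± 4.13 and Abcg2 at 7.25 ± 2.24 RPKM. The remaining members were far lower, with Abcc4 at 0.716 ± 0.0372, Abcb1a at 0.505 ± 0.0290 and Abcb1b at 0.452 ± 0.0963 RPKM. All control livers separated Abcc2 from Abcc3, Abcb4 from Abcg5, Abcg2 from Abcc4 and Abcc4 from Abcb1a. The neighbours Abcc3 and Abcb4, Abcg5 and Abcg8, Abcg8 and Abcg2, and Abcb1a and Abcb1b overlapped between livers.

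The order of the means was the same in vehicle as in control livers. Abcc2 stayed first at 62.8 ± 8.49 RPKM in vehicle and 63.8 ± 12.1 RPKM in hAAM livers. Abcg5 and Abcg8 stood above Abcb4 in the hAAM means, at 22.9, 19.5 and 15.9 RPKM, although the livers overlapped. At the low end, Abcc4 (1.62 RPKM in vehicle and 1.67 RPKM in hAAM livers) no longer separated from Abcb1a (1.53 and 1.26 RPKM), while Abcb1a lay above Abcb1b (0.640 and 0.597 RPKM) in every injured liver.

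**Figure D1:**
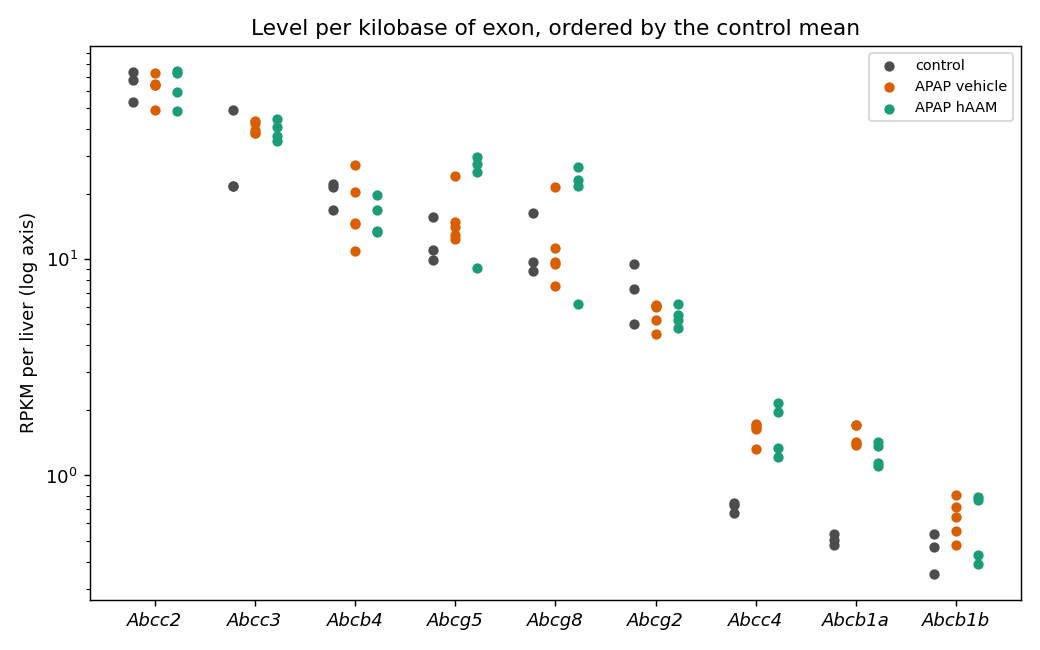
RPKM of each member in each liver on a log axis, ordered by the control mean. Points are livers (3 control, 5 APAP vehicle, 4 APAP hAAM), and the 3 members at the right lie below all the others in every group.

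By the edgeR quasi-likelihood test with a false discovery rate (FDR) threshold of 0.05 over all tested genes, 2 of the 9 members differed from control in each APAP group. They were the basolateral pump Abcc4 and the P-glycoprotein gene Abcb1a, and both were higher. Among all tested genes 29.8% differed between vehicle and control (15.0% were higher), and 20.7% differed between hAAM and control (10.7% were higher), so the count of members called lay near the share of all genes. The same 2 members were the only ones whose livers did not overlap with control in these TMM-scaled values, beside 34.8% of all tested genes for vehicle and 28.5% for hAAM. Scaling by library size alone shifted the log2 fold changes of all genes by a median of 0.35 in vehicle and 0.30 in hAAM livers, and 4 members then passed in each comparison: Abcc4, Abcb1a and Abcc3, with Abcb1b in vehicle and Abcg5 in hAAM livers. In bulk tissue, fewer cells of a type and less RNA per cell cannot be told apart, and neither can more of them.

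The organic anion pumps are taken first. Abcc2 (ENSMUSG00000025194, 19:43782192-43840740, plus strand, GRCm38) carries bilirubin glucuronide and glutathione conjugates into bile. It was at 627, 457 and 579 CPM in control replicates 1 to 3, at 550, 547, 618, 418 and 547 CPM in vehicle replicates 1 to 5 and at 507, 414, 633 and 621 CPM in hAAM replicates 1 to 4. The groups overlapped fully, and control replicate 2, vehicle replicate 4 and hAAM replicate 2 were the lowest of their groups. The log2 fold change against control was -0.05 (95% interval -0.41 to 0.32, FDR 0.855 by edgeR) in vehicle and -0.03 (-0.41 to 0.35, FDR 0.930) in hAAM livers. Scaled by library size alone, these became 0.30 and 0.26, and neither passed the threshold. Leaving out 1 liver at a time, they ranged from -0.17 to 0.052 and from -0.15 to 0.086, so neither kept a direction.

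Abcc3 (ENSMUSG00000020865, 11:94343295-94392997, minus strand) exports glucuronides, APAP glucuronide among them, across the basolateral membrane to the blood. It was at 279, 124 and 125 CPM in control, at 226, 249, 220, 219 and 242 CPM in vehicle and at 234, 201, 255 and 213 CPM in hAAM livers. Control replicate 1 lay above every injured liver, and the other control livers lay below every injured liver. The log2 fold change was 0.39 (SE 0.227, 95% interval -0.10 to 0.89, FDR 0.210 by edgeR) in vehicle and 0.36 (SE 0.236, -0.15 to 0.87, FDR 0.302) in hAAM livers. Without control replicate 1 it was 0.89 (FDR 7.33e-04) and 0.86 (FDR 0.00163), and without control replicates 2 or 3 it was 0.19 to 0.20 in vehicle and 0.16 in hAAM livers (FDR 0.579 to 0.694). With library size alone it was 0.74 (FDR 0.0189) and 0.65 (FDR 0.0463).

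Abcc4 (ENSMUSG00000032849, 14:118482692-118706219, minus strand) exports bile acids, conjugates and cyclic nucleotides at the basolateral membrane and is known as a pump that rises when bile flow is blocked. It was at 4.31, 4.77 and 4.64 CPM in control livers. In vehicle livers it was at 11.0, 10.8, 8.48, 10.5 and 11.0 CPM, and in hAAM livers at 13.9, 12.5, 7.78 and 8.55 CPM. Every injured liver was above every control liver, and control livers differed from each other by no more than 1.11-fold. Abcc4 was 2.26-fold higher in vehicle livers (log2 fold change 1.18, SE 0.183, 95% interval 0.78 to 1.58, FDR 0.00107 by edgeR) and 2.34-fold higher in hAAM livers (1.22, SE 0.190, 0.81 to 1.64, FDR 0.00192). The call held in all 22 alternative fits of each comparison. Without the 2 near-identical livers the log2 fold changes were 1.25 and 1.32.

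Among hAAM livers Abcc4 split, with replicates 1 and 2 above all vehicle livers, replicate 3 below all of them and replicate 4 below 4 of the 5. The ratio of Abcc4 to Abcc2 per kilobase of exon was 0.00917 to 0.0139 in control, 0.0183 to 0.0335 in vehicle and 0.0164 to 0.0404 in hAAM livers. Abcc2 thus remained far above Abcc4 per kilobase in every liver. The ratio of Abcc3 to Abcc2 was 0.323 to 0.666, 0.532 to 0.785 and 0.513 to 0.727 in the same order, and the groups overlapped.

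The P-glycoprotein genes Abcb1a and Abcb1b are the mouse counterparts of human ABCB1 and encode canalicular pumps for bulky, lipophilic drugs. They lie side by side on chromosome 5 with Abcb4. Abcb1a (ENSMUSG00000040584, 5:8660077-8748575, plus strand) was at 2.76, 2.93 and 2.61 CPM in control livers. It was at 9.39, 7.82, 7.69, 9.40 and 7.60 CPM in vehicle livers and at 7.53, 6.09, 6.24 and 7.84 CPM in hAAM livers. The highest control liver was below the lowest injured liver, and the ranges of the injured groups overlapped. Abcb1a was 3.03-fold higher in vehicle livers (log2 fold change 1.60, SE 0.129, 95% interval 1.32 to 1.88, FDR 2.62e-05 by edgeR) and 2.50-fold higher in hAAM livers (1.32, SE 0.132, 1.04 to 1.61, FDR 1.56e-04). It stood at place 24 by p among the 22581 tested genes in the vehicle comparison and at place 43 in the hAAM comparison. The call held in all 22 alternative fits of each comparison, and without the 2 near-identical livers the log2 fold changes were 1.63 and 1.26.

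Abcb1b (ENSMUSG00000028970, 5:8798147-8866315, plus strand) was at 4.31, 2.78 and 3.73 CPM in control, 5.71, 4.44, 3.81, 6.48 and 5.12 CPM in vehicle and 6.19, 6.35, 3.41 and 3.12 CPM in hAAM livers. Vehicle replicate 3 and hAAM replicates 3 and 4 lay within the control range, and the other injured livers lay above it. The log2 fold change was 0.51 (95% interval -0.07 to 1.08, FDR 0.171 by edgeR) in vehicle and 0.40 (-0.20 to 1.01, FDR 0.325) in hAAM livers. Scaled by library size alone the vehicle value was 0.86 (FDR 0.0394). Leaving out 1 liver at a time, it ranged from 0.35 (without control replicate 2) to 0.65 in vehicle and from 0.24 (without hAAM replicate 2) to 0.56 in hAAM livers, with no call.

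The balance between the P-glycoprotein genes therefore differed by liver. Per kilobase of exon, the ratio of Abcb1a to Abcb1b was 0.935, 1.53 and 1.02 in control livers. It was 2.40, 2.57, 2.94, 2.12 and 2.17 in vehicle and 1.77, 1.40, 2.67 and 3.67 in hAAM livers. All vehicle livers were above control, whereas hAAM replicate 2 was not, and the difference in ratio was not tested. Of all 50-base stretches of Abcb1a exons, 16.3% also occur in Abcb1b, and 11.1% of those of Abcb1b occur in Abcb1a, so reads in these stretches could have been split between them. Their summed level does not depend on such a split, but it would on reads dropped or counted for both genes. It was 5.71 to 7.07 CPM in control, 11.5 to 15.9 CPM in vehicle and 9.64 to 13.7 CPM in hAAM livers. Control and injured livers did not overlap in it.

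Abcb4 (ENSMUSG00000042476, 5:8893717-8959231, plus strand) is the canalicular floppase that puts phosphatidylcholine into bile. It was at 210, 158 and 202 CPM in control, at 102, 137, 192, 138 and 257 CPM in vehicle and at 126, 126, 159 and 186 CPM in hAAM livers. The vehicle livers spread 2.52-fold and held both the lowest and the highest value of all livers. The log2 fold change was -0.20 (95% interval -0.75 to 0.35, FDR 0.586 by edgeR) in vehicle and -0.35 (-0.92 to 0.23, FDR 0.376) in hAAM livers. The vehicle value turned to 0.15 with library size alone, and leaving out 1 liver at a time it ranged from -0.41 (without vehicle replicate 5) to -0.065 (without vehicle replicate 1), with no call.

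Abcg2 (ENSMUSG00000029802, 6:58584523-58695676, plus strand) is the canalicular breast cancer resistance protein gene, a pump of sulfated conjugates, urate and drugs. It was at 77.3, 40.8 and 59.3 CPM in control, 42.9, 36.6, 49.3, 50.2 and 49.5 CPM in vehicle and 45.0, 42.9, 39.3 and 50.4 CPM in hAAM livers. Control replicates 1 and 3 were above all injured livers, and control replicate 2 was among them. The log2 fold change was -0.37 (SE 0.172, 95% interval -0.74 to 0.0027, FDR 0.122 by edgeR) in vehicle and -0.41 (SE 0.180, -0.80 to -0.020, FDR 0.124) in hAAM livers. Without control replicate 2 it was -0.58 (FDR 0.0154) and -0.62 (FDR 0.0204). Without control replicate 1 it was -0.13 (FDR 0.594) and -0.17 (FDR 0.525), and with library size alone it was -0.02 (FDR 0.940) and -0.10 (FDR 0.700).

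Abcg5 and Abcg8 encode the partners of a heterodimer that moves cholesterol and plant sterols into bile, and both are known targets of the liver X receptors. Abcg5 (ENSMUSG00000040505, 17:84658234-84683011, minus strand) was at 42.7, 30.1 and 26.9 CPM in control, 40.3, 38.3, 65.6, 33.8 and 35.3 CPM in vehicle and 74.9, 24.6, 80.4 and 68.6 CPM in hAAM livers. Abcg8 (ENSMUSG00000024254, 17:84676302-84700333, plus strand) was at 61.4, 33.1 and 36.3 CPM in control, 42.5, 35.6, 81.1, 28.2 and 36.6 CPM in vehicle and 87.2, 23.2, 99.8 and 81.6 CPM in hAAM livers. For each gene, hAAM replicates 1, 3 and 4 were above every control liver and above every vehicle liver, while vehicle replicate 3 was the highest vehicle liver and hAAM replicate 2 the lowest of all 12.

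The log2 fold change of Abcg5 was 0.36 (95% interval -0.37 to 1.10, FDR 0.448 by edgeR) in vehicle and 0.90 (SE 0.357, 0.13 to 1.68, FDR 0.0924) in hAAM livers. That of Abcg8 was 0.04 (-0.90 to 0.98, FDR 0.957) and 0.74 (-0.25 to 1.74, FDR 0.272). Without hAAM replicate 2 the hAAM value of Abcg5 was 1.17 and passed the threshold (FDR 0.0139), as it did with library size alone (1.18, FDR 0.0174). Without the 2 near-identical livers Abcg5 was at 0.16 in vehicle and 0.85 in hAAM livers (FDR 0.751 and 0.118), and Abcg8 at -0.28 and 0.69 (FDR 0.637 and 0.296). The vehicle value of Abcg8 changed sign without vehicle replicate 3 (-0.29, FDR 0.607), and also without control replicate 2 or control replicate 3.

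**Figure D2:**
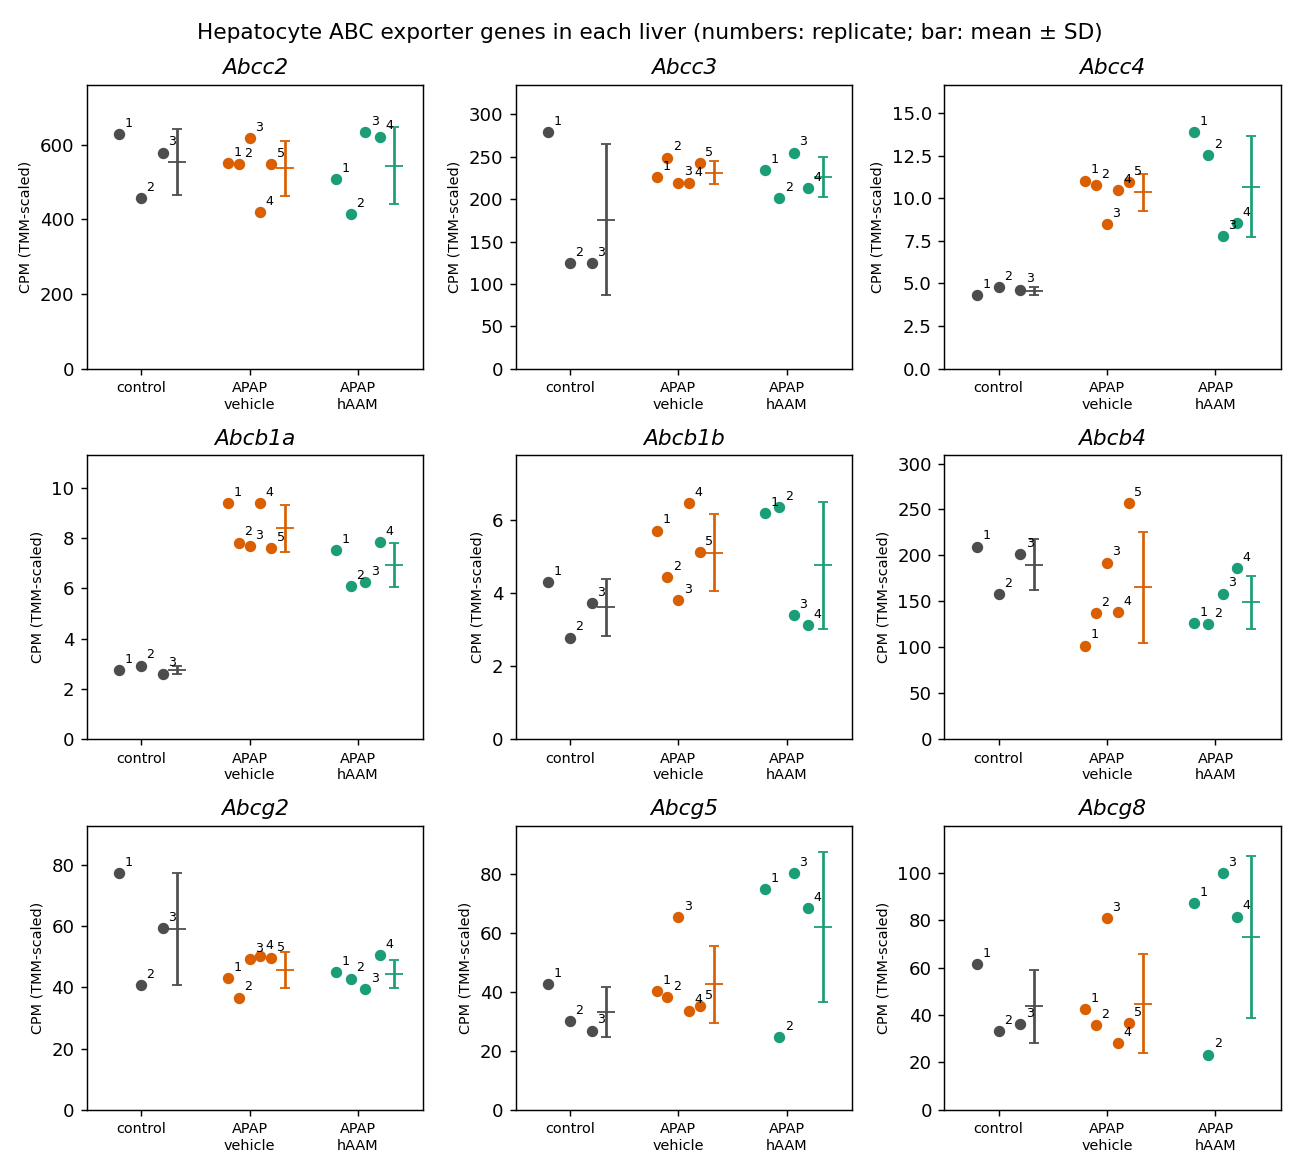
CPM (TMM-scaled) of each member in each liver, from 0 on a linear axis of its own. Points are livers with their replicate number, and the bar beside each group is its mean ± SD. Abcc4 and Abcb1a are the panels in which no injured liver reaches down to the control livers.

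Between hAAM and vehicle livers, 0 of 9 members passed the threshold by edgeR, as did 0 of all tested genes (0% of 22581). DESeq2 called 1 gene in all and 0 members, with a smallest member FDR of 0.851. At an unadjusted p under 0.05, edgeR gave 1133 genes (5.02%) and DESeq2 gave 1203, and each gave 1 member. In edgeR this was Abcb1a, at a log2 fold change of -0.28 (SE 0.110, 95% interval -0.51 to -0.036, unadjusted p = 0.0274, FDR 0.966), and its livers overlapped. No member separated the hAAM livers from the vehicle livers, beside 1.40% of all tested genes that did.

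The intervals of this comparison count the 2 near-identical livers as separate, although they stand on opposite sides of it. They therefore do not bound the difference without that pair, for which no interval is given here. The widest intervals were those of Abcg8, at 0.71 (95% interval -0.15 to 1.56), and Abcg5, at 0.54 (-0.12 to 1.21). Abcb1b was at -0.10 (-0.62 to 0.42), Abcb4 at -0.15 (-0.66 to 0.36) and Abcc3 at -0.03 (-0.48 to 0.41). Abcc4, the called member whose hAAM and vehicle means were closest, was at 0.05 (-0.30 to 0.39), Abcg2 at -0.04 (-0.39 to 0.31) and Abcc2 at 0.02 (-0.31 to 0.35). Leaving out 1 liver at a time turned the sign of these last 6, with Abcb1b between -0.27 and 0.056 and Abcb4 between -0.28 and 0.068, and not that of Abcb1a, Abcg5 or Abcg8. Without the 2 near-identical livers, Abcb1a was at -0.37 (FDR 0.629), Abcg5 at 0.70 (FDR 0.749) and Abcg8 at 0.97 (FDR 0.716). DESeq2 without these livers called 88 genes (66 higher, 22 lower) and 0 members, with Abcb1a at an FDR of 0.340, and this fit was chosen after seeing the data.

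**Figure D3:**
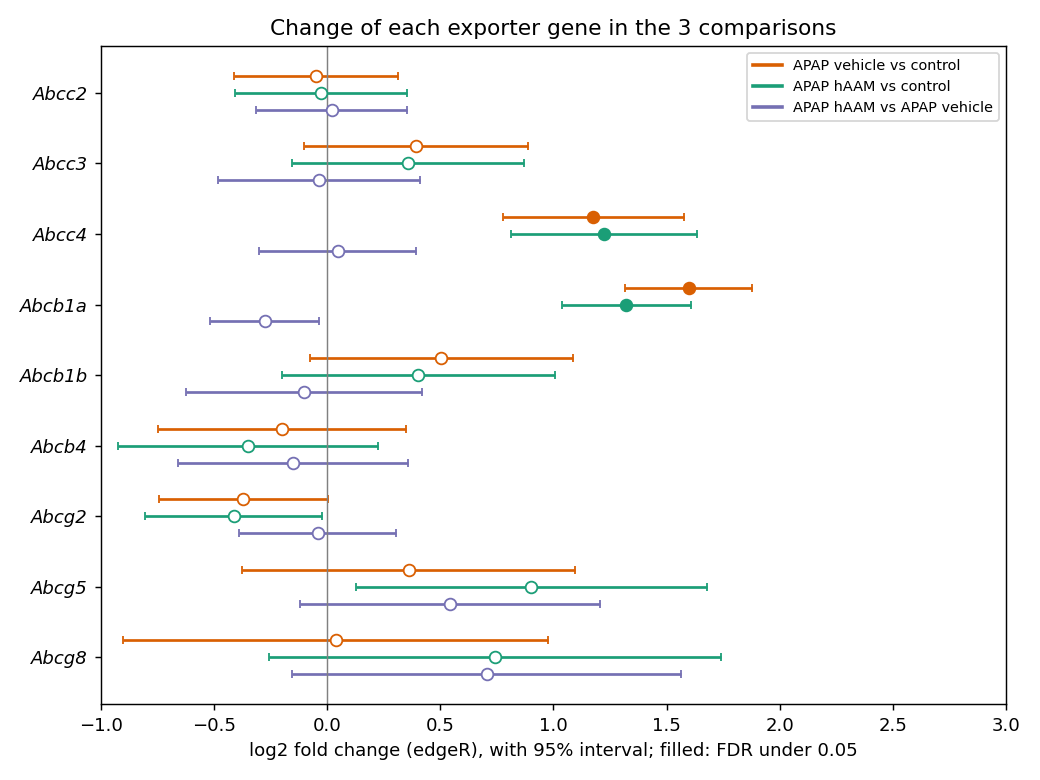
log2 fold change of each member by edgeR with its 95% interval, for vehicle against control, hAAM against control and hAAM against vehicle. Filled points passed an FDR of 0.05; they are Abcc4 and Abcb1a in the comparisons with control, and no point is filled for hAAM against vehicle.

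How members moved with each other was described with Pearson's r of log2 CPM over livers, which share their scaling and, in 1 case, nearly a library. Abcg5 and Abcg8 followed each other most closely, at r = 0.955 over 12 livers and 0.991 over the 9 injured livers. Their ratio per kilobase, Abcg8 to Abcg5, stayed between 0.604 and 1.04 in all livers, while Abcg8 itself ranged from 23.2 to 99.8 CPM. They share 82 exon bases on opposite strands, and the strand setting of the counting is not given in the sources used here.

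Abcc4 and Abcb1a, the called members, had r = 0.890 over 12 livers and 0.0897 over the 9 injured livers, so the former value reflects the step between control and injured livers. Within the injured livers Abcc4 went with Abcb1b (r = 0.866), and Abcb1b went opposite to Abcc2 (r = -0.869). Over the 7 injured livers left without the near-identical pair, r was 0.990 for Abcg5 and Abcg8, 0.146 for Abcc4 and Abcb1a, 0.819 for Abcc4 and Abcb1b and -0.837 for Abcb1b and Abcc2. The livers at 1 end of this pattern were hAAM replicates 3 and 4 and vehicle replicate 3, which were lowest for Abcc4 and Abcb1b and highest for Abcc2 among the injured livers. Vehicle replicate 3 and hAAM replicate 4 are the near-identical livers and carry much the same information.

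**Figure D4:**
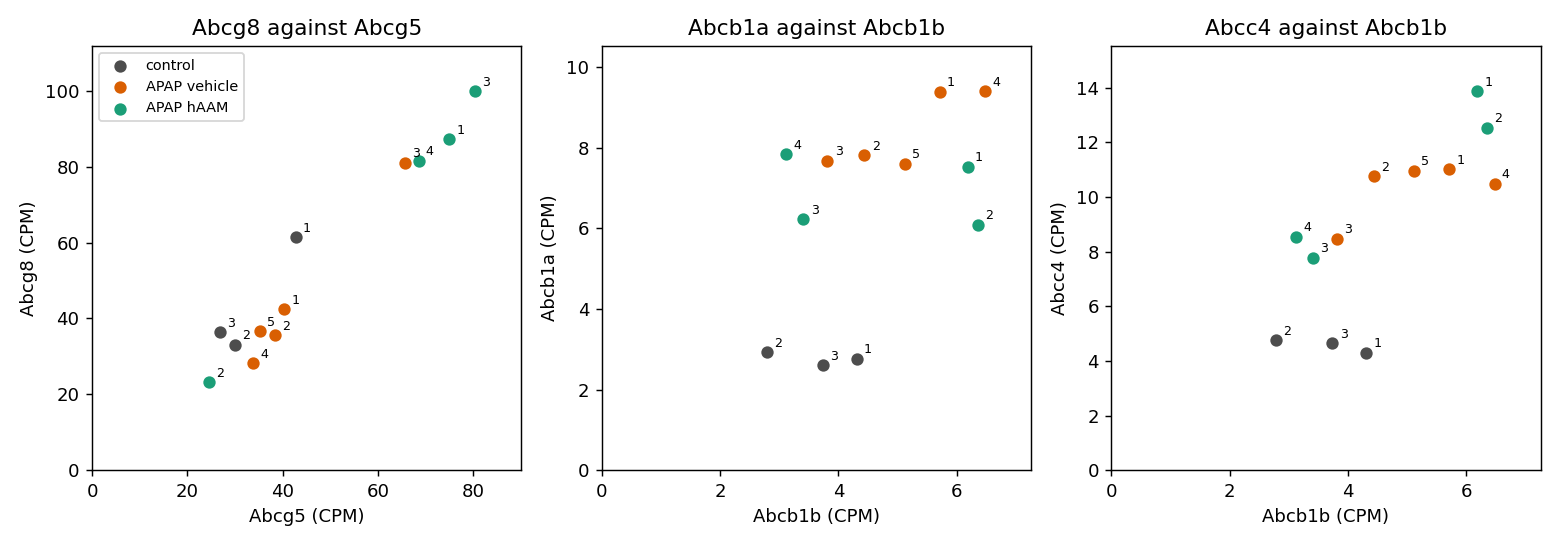
CPM of one member against another in each liver, with replicate numbers, for Abcg8 against Abcg5, Abcb1a against Abcb1b and Abcc4 against Abcb1b. Abcg5 and Abcg8 lie along a line in all groups, Abcb1a sets control livers apart at any level of Abcb1b, and Abcc4 rises with Abcb1b among injured livers only.

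For each member the tested genes outside the 9 members with the most similar pattern were listed by Pearson's r of log2 CPM over the 12 livers. For Abcc4 they were Cyp4f16 (r = 0.985), Orc1 (0.983) and Plau (0.982), which kept r of 0.936, 0.935 and 0.927 over the 9 injured livers. For Abcb1a they were Msto1 (0.977), Mmp10 (0.972) and Mthfd1l (0.968), with r of 0.677, 0.694 and 0.599 over the injured livers. Mmp10 was near the floor, at a mean of 0 CPM in control, 0.503 CPM in vehicle and 0.310 CPM in hAAM livers. Without the near-identical pair, over 7 injured livers, r was 0.902, 0.927 and 0.902 for the genes most similar to Abcc4 and 0.701, 0.727 and 0.831 for those most similar to Abcb1a.

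Fahd2a and the mitochondrial enzyme gene Got2 were among the most similar to Abcc2 (0.926 and 0.918). Egr2, Mir669n and Ppp3ca were the most similar to Abcc3 (0.955, 0.932 and 0.927), with r of 0.481, 0.467 and 0.873 over the 9 injured livers and 0.360, 0.601 and 0.855 over the 7 without the near-identical pair. For Egr2 and Mir669n the value over 12 livers thus leaned on the control livers. Ncf1, Piezo2 and Gm13597 were the most similar to Abcb1b (0.958, 0.957 and 0.957). Mmd, Tnfaip8l1 and Lamb3 led for Abcb4 (0.961, 0.948 and 0.936), and the carboxylesterase genes Ces2d-ps and Ces2c with Psmd12 led for Abcg2 (0.960, 0.949 and 0.921). Wdsub1 led for Abcg5 (0.948) and Cyb5a for Abcg8 (0.888), and Gm24313 stood second for each (0.896 and 0.877). The third places went to 4933417D19Rik for Abcg5 (0.851) and Gm13833 for Abcg8 (0.876). Mir669n, Gm24313 and 4933417D19Rik were near the floor, with group means of 0.086 to 0.19, 0.11 to 0.17 and 0.30 to 0.68 CPM. Over the 9 injured livers, the genes named here for members other than Abcc3 had r from 0.812 (4933417D19Rik) to 0.966 (Tnfaip8l1).

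Other transport genes of the liver were counted from lists, beside median log2 fold changes of all tested genes of 0.01 in vehicle and 0.02 in hAAM livers against control. Of 38 tested other ABC genes, 9 rose and 8 fell in vehicle livers and 6 rose and 6 fell in hAAM livers. Their median log2 fold changes were -0.06 and -0.04. The bile salt export pump Abcb11, which drives bile flow, fell from 713 CPM in control to 208 in vehicle (log2 fold change -1.78, FDR 0.00267 by edgeR) and 291 in hAAM livers (-1.29, FDR 0.0242). Abcc1, a basolateral conjugate pump that non-parenchymal cells also express, rose by 1.34 (FDR 0.0233) and 1.27 (FDR 0.0436), and Abca4 rose by 1.36 and 1.01 from a low level (FDR 0.00712 and 0.0469).

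Of the 8 sinusoidal uptake carriers, which bring bile acids and drugs into the hepatocyte, 5 fell and 0 rose in vehicle livers, and 4 fell and 1 rose in hAAM livers. The medians were -1.05 and -0.84. The organic anion carrier Slc22a7 fell, at -1.76 and -1.16 (FDR 0.00322 and 0.0413 by edgeR), as did Slco1b2, at -1.39 and -1.09 (FDR 0.00196 and 0.0137). Slco1a4 was the exception, at 1.30 (FDR 0.0631) in vehicle and 1.75 (FDR 0.0315) in hAAM livers. The bile acid carrier Slc10a1 was at -0.51 (FDR 0.186) and -0.23 (FDR 0.609).

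Of 11 other bile and sinusoidal exporters, a list that also holds Abcb11 and Abcc1, 3 rose and 5 fell in vehicle livers and 3 rose and 3 fell in hAAM livers (medians -0.46 and -0.22). Tmem30a, the chaperone subunit of the phospholipid flippases, fell, at -0.60 and -0.49 (FDR 9.82e-04 and 0.00594 by edgeR). Of 8 canalicular scaffold and trafficking genes, 3 rose and 3 fell in vehicle livers, and 1 rose and 1 fell in hAAM livers (medians 0.12 and 0.02). The membrane-cytoskeleton linker Msn rose by 1.64 and 1.47 (FDR 0.00385 and 0.0113), and the scaffold Slc9a3r1 fell, at -0.73 and -0.56 (FDR 7.71e-04 and 0.0066).

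Of 14 genes for transcription factors and sensors that are known to act on exporter genes, 0 rose in either APAP group, while 8 fell in vehicle and 6 in hAAM livers (medians -0.31 and -0.30). The aryl hydrocarbon receptor Ahr fell, at -0.80 and -0.68 (FDR 0.0025 and 0.011 by edgeR), as did Nr5a2, at -0.71 and -0.62 (FDR 0.00319 and 0.0128). Nfe2l2, which encodes NRF2, was at 0.18 (FDR 0.358) and 0.21 (FDR 0.337).

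Of 10 enzymes and carriers known as NRF2 targets, 3 rose and 2 fell in each APAP group (medians -0.05 and 0.03). The cystine carrier Slc7a11 rose by 3.19 and 2.58 (FDR 0.00695 and 0.0273 by edgeR), Srxn1 by 1.86 and 1.26 (FDR 4.47e-04 and 0.00592) and Nqo1 by 1.42 and 1.11 (FDR 0.00131 and 0.00839), whereas Me1 fell, at -1.57 and -1.48 (FDR 9.99e-04 and 0.0035). Of 7 targets of the liver X receptors, 2 rose and 3 fell in vehicle livers and 2 rose and 1 fell in hAAM livers (medians -0.12 and 0.01). Abcg1, a cholesterol exporter of macrophages, rose by 1.04 and 1.18 (FDR 0.00244 and 0.00293), Mylip rose by 0.59 and 0.60 (FDR 0.0265 and 0.0412) and the lipogenic Scd1 fell, at -3.68 and -2.70 (FDR 0.00342 and 0.0271). No gene of these lists passed the threshold by edgeR between hAAM and vehicle livers, with or without the near-identical livers. Without that pair, the calls in hAAM livers were lost for Abca4 (0.96, FDR 0.0771 by edgeR), Slco1a4 (1.76, FDR 0.0545), Slc22a7 (-1.17, FDR 0.0685) and Mylip (0.59, FDR 0.0821), and calls were gained for Slco1a1 (-1.36, FDR 0.0339), Abcd3 (-0.75, FDR 0.0481), Ppara (-0.80, FDR 0.0441) and Ezr (0.75, FDR 0.0477). In vehicle livers the call of Abcd2 was lost (1.56, FDR 0.0668 by edgeR), and Abca8a (-1.26, FDR 0.0201), Abca8b (-0.80, FDR 0.0175) and Abca17 (1.28, FDR 0.0189) were gained. Across the 7 lists of this kind, no count in either direction then moved by more than 2 genes.

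**Figure D5:**
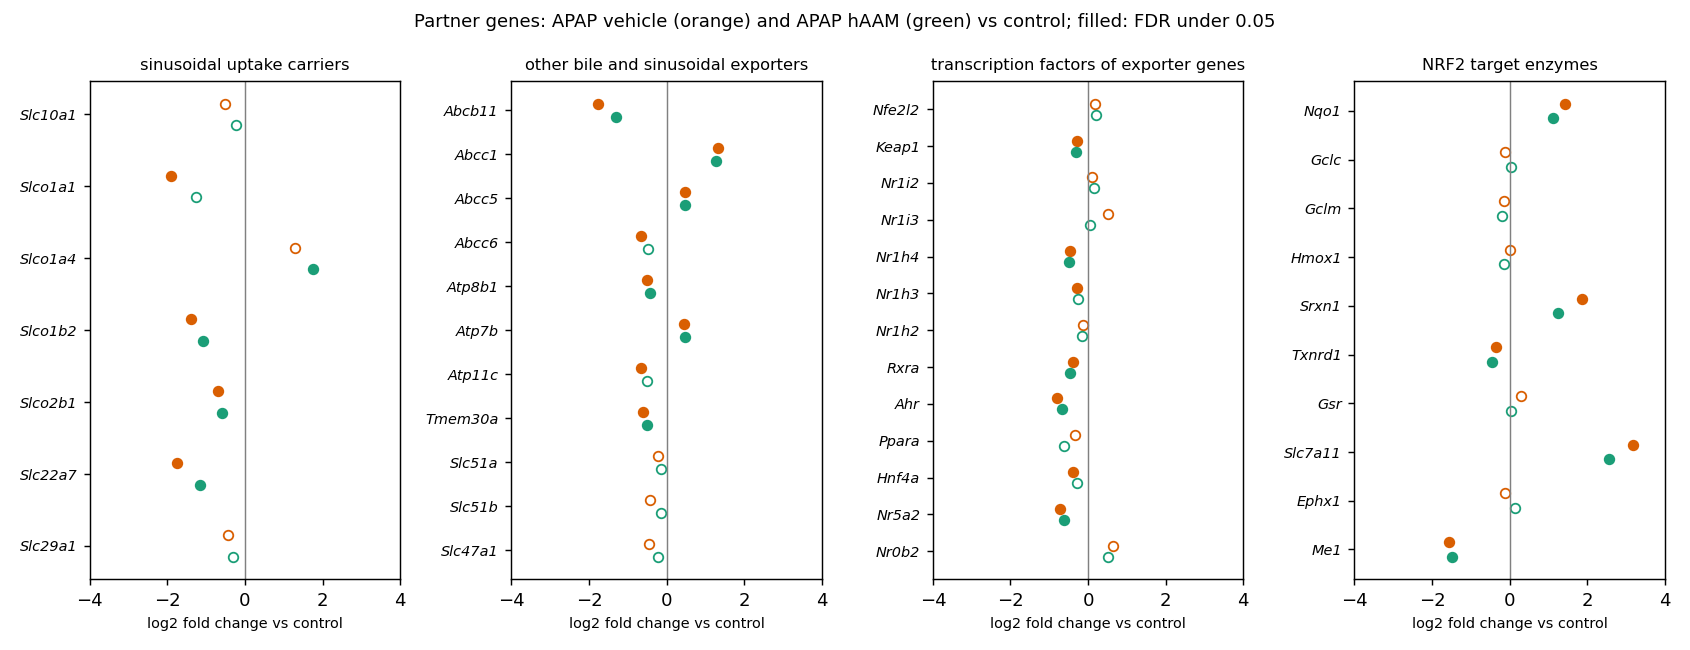
log2 fold change against control of genes of 4 lists, for APAP vehicle and APAP hAAM livers. Filled points passed an FDR of 0.05, and the uptake carriers shown hold 4 filled points below 0 in vehicle livers and none above it.

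Markers of cell types that the tissue holds were read beside these results. The 9 hepatocyte markers measured had a median log2 fold change of -0.17 in vehicle and -0.04 in hAAM livers, with 1 rising and 4 falling, and 1 rising and 1 falling. The riser was Ahsg, and its calls were lost without the near-identical livers (FDR 0.0778 and 0.0572 by edgeR). The 9 pericentral hepatocyte markers all fell in vehicle livers and 7 fell in hAAM livers, with medians of -3.21 and -2.72, and without the near-identical livers 8 and 6 fell. Their summed level was 3932 to 6273 CPM in control, 351 to 1456 CPM in vehicle and 456 to 2841 CPM in hAAM livers. Of the 8 periportal markers, 1 rose and 1 fell in vehicle livers, and 2 rose in hAAM livers.

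All 6 markers of recruited monocytes and macrophages rose in each APAP group, with medians of 2.51 and 2.40 and a summed level of 50.4 to 62.7 CPM in control, 110 to 214 CPM in vehicle and 109 to 289 CPM in hAAM livers. No tested marker of any cell type list was at 0 in any liver, and Ccr2 went from 2.79 CPM in control to 17.2 and 16.1 CPM. Endothelial markers rose in 4 of 8 cases in vehicle and 2 of 8 in hAAM livers (4 and 3, with 1 falling in each, without the near-identical livers), stellate markers in 2 of 6 in each and Kupffer cell markers in 1 of 5 in each. None of the 6 cholangiocyte, 5 T and NK cell and 4 B cell markers passed the threshold. As groups, injured livers were thus higher than control livers in Abcc4, Abcb1a and monocyte and macrophage markers, and lower in pericentral markers. The markers were not set against Abcc4 and Abcb1a liver by liver. What part these cells have in the levels of Abcc4 and Abcb1a was not tested.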

How the data were processed

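The authors trimmed paired-end reads of rRNA-depleted liver RNA with Cutadapt 4.6, aligned them to GRCm38 with STAR 2.7.1a and used summarizeOverlaps to count reads in Ensembl genes. What the authors deposited are these raw counts, without normalization, and the counting mode and strand setting are not given in the sources used here. GENCODE M21 gave symbols and exon lengths for 24092 of 24187 genes.

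Counts were tested with edgeR 4.0.16 in R 4.3.3, by the quasi-likelihood test in 1 fit of 12 livers, with two-sided p-values adjusted by Benjamini-Hochberg. Genes were filtered with filterByExpr by group and scaled with TMM, and log2 CPM carried a prior count of 2. Standard errors were recovered from edgeR's F statistic, as the absolute log2 fold change over the square root of F. The 95% intervals were built from them with the t distribution. On simulated counts the vehicle comparison recovered 78 of 100 genes changed 2-fold and 100 of 100 changed 4-fold. The 200 changed genes were taken above 1 CPM, livers were independent and each gene's spread followed the average trend for its level. These shares therefore need not hold for members that spread more. DESeq2 1.42.0, other scalings and filters, a replicate block, other samples in the fit, a stricter threshold and leaving out livers were the alternatives.

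The members and lists were chosen with earlier results of these data known. Named genes are all members, the 3 genes outside the members with the highest r to each, and up to 3 genes per list with the largest changes among those passing in both comparisons with control. Nqo1, Slco1a4, Slc10a1, Nfe2l2 and list genes whose calls changed without the near-identical livers were named after their values were seen. Some genes that the rule names are not reported here.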

Additional observations from a re-analysis of the deposited data

Results flagged for a closer look

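Of 18 combinations of a member with the vehicle or hAAM group, 4 held a liver whose distance from its nearest neighbour was large for the range of the group by Dixon's 95% limit. Chance alone gives this in about 1 of 20 groups, and the members of a pair are not independent. Abcc4 in vehicle replicate 3 was the lowest of its group, at a log2 CPM of 3.09 against 3.39 to 3.47 in the others. Abcg5 in the same liver was the highest of its group, at 6.04 against 5.08 to 5.33. This liver is one of the near-identical pair. Abcg5 and Abcg8 were both lowest in hAAM replicate 2, at 4.62 against 6.10 to 6.33 and at 4.54 against 6.35 to 6.64. No explanation was tested for these values.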

How the results depend on the processing

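Abcc4 and Abcb1a passed the threshold, in the same direction, in all 22 alternative fits of both comparisons with control, and no member passed between hAAM and vehicle livers in any of the 22. Their log2 fold changes ranged from 1.14 to 1.53 and from 1.56 to 1.95 in vehicle livers, and from 1.08 to 1.55 and from 1.25 to 1.62 in hAAM livers. With library size alone, 4 members passed in each comparison with control, and the calls over all genes became 8637 higher and 1110 lower in vehicle and 7340 in hAAM livers, of which 6559 were higher and 781 lower. With TMM they were 3380 and 3339, and 2418 and 2248. At an FDR of 0.01 the calls over all genes fell to 3183 and 1543, and with only the 2 groups compared in the fit the hAAM count was 2729. DESeq2 called 1 gene between hAAM and vehicle livers, and 88 without the near-identical livers. The cause of these shifts was not tested.

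The replicate block, with the replicate number of the labels as a factor, gave 4253 calls in vehicle and 2959 in hAAM livers, and the same 2 members. It put Abcb4 at -0.49 in vehicle against control and at 0.07 between hAAM and vehicle livers. Deviations of same-numbered livers correlated between -0.46 and 0.38, so the livers share only a number, and the block uses up degrees of freedom.

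Leaving out 1 liver at a time, the members called ranged from 2 to 3 in each comparison with control and were 0 between hAAM and vehicle livers. Calls over all genes ranged from 4633 to 7197 for vehicle, 2419 to 5456 for hAAM and 0 to 1 for hAAM against vehicle livers. The hAAM count was 3027 without control replicate 1, 2419 without control replicate 3, 2799 without hAAM replicate 1 and 2942 without hAAM replicate 2, and the 1 call between treatments came without vehicle replicate 3. Abcb1b, at 167 to 438 counts per liver, and Abcb1a, at 132 to 636, were the least counted members.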
